A study of Mus musculus with 10 samples.

Results

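The potassium channel genes of mouse Achilles tendon were taken from the rows of the count table whose Ensembl identifier has a mouse symbol of the Kcn series with a letter code and a number, together with Lrrc55, a channel subunit outside that naming scheme. Antisense and opposite-strand RNAs were left out, and not every row that fits this pattern is analysed here, so class counts and sums cover the members alone. The rule found 93 genes among the 32285 in the table, which were 40 voltage-gated pore subunits (Kcna to Kcnv), 14 inward rectifiers (Kcnj), 14 2-pore-domain channels (Kcnk), 8 calcium- or sodium-activated channels (Kcnma, Kcnn, Kcnt and Kcnu) and 17 auxiliary subunits (Kcnab, Kcne, Kcnip, Kcnmb and Lrrc55). Of these, 90 had at least 1 count in some library and 3 had none (Kcne2, Kcnj4 and Kcnk16).

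The study measured what changes in tendon when Mkx, the gene of the homeobox transcription factor Mohawk, is removed in young adult mice. Achilles tendons of 3 genotypes were measured by RamDA-seq, a full-length method for total RNA that was developed for single cells. They were 3 Mkx-CreER/flox libraries, which hold the inducible Cre recombinase and a floxed Mkx allele, 3 Mkx-CreER/+ libraries with the Cre and no floxed allele, and 4 Mkx flox/+ libraries with a floxed allele and no Cre. All animals, controls included, received 20 mg/kg tamoxifen at 6 weeks of age, and tendons were taken 4 weeks later. The sources used here do not say whether CreER takes the place of an Mkx copy, nor give the sex of the mice, the number of mice behind a library or the deleted exons, so p-values measure the spread between libraries. The table numbers the Mkx-CreER/flox libraries 1, 4 and 5, the Mkx-CreER/+ libraries 1, 2 and 4 and the Mkx flox/+ libraries 1 to 4, and these numbers name the libraries below.

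Potassium channels let potassium ions leave the cell down their gradient and so hold the membrane potential negative. Voltage-gated channels open on depolarisation and end action potentials, inward rectifiers hold the resting potential, 2-pore-domain channels carry a standing leak, and calcium-activated channels couple a rise in cytosolic calcium to potassium efflux. Auxiliary subunits attach to the pores and set their gating and traffic. Tendon itself is made of fibroblasts in collagen, and a dissected Achilles tendon also carries vessels, nerve, resident macrophages and muscle fibres at the myotendinous junction, each with channel genes of its own.

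Mkx measured 26.1, 32.4 and 30.5 CPM (counts relative to the library total after TMM scaling) in Mkx-CreER/flox libraries 1, 4 and 5, against 91.4, 93.8 and 93.5 CPM in Mkx-CreER/+ and 187, 177, 121 and 153 CPM in Mkx flox/+. The Mkx-CreER/flox libraries were below every control, with a log2 fold change of -2.04 against both controls (SE 0.176, edgeR adjusted p = 0.000149), and Mkx-CreER/+ lay below Mkx flox/+ without passing the test between them (log2 fold change -0.78, edgeR adjusted p = 0.489). Total counts were between 8680934 and 22656417 per library, at which 3 counts correspond to 0.126 to 0.360 CPM, a limit that covers counting error only. Markers of the labelled tissue were present in all libraries, and the 8 tendon fibroblast markers, Mkx among them, took 2.51% of counts in Mkx-CreER/flox, 4.40% in Mkx-CreER/+ and 8.98% in Mkx flox/+, with 5 of 8 lower. The other marker lists also moved with genotype. Skeletal muscle markers took 7.63 to 11.8% of counts in Mkx-CreER/flox, 3.18 to 8.31% in Mkx-CreER/+ and 1.67 to 5.24% in Mkx flox/+, 4 of 20 were called higher and none was at 0 in any library. Schwann cell markers took 0.0466 to 0.269%, 0.0542 to 0.118% and 0.0532 to 0.0849% in the same order, 1 of 13 was called higher, and Mal and Pllp were at 0 in some library. Mural and smooth muscle markers took 0.156 to 0.254%, 0.120 to 0.139% and 0.0970 to 0.124% with 2 of 11 called higher, and all 10 macrophage markers fell (0.0607 to 0.0870%, 0.110 to 0.261% and 0.158 to 0.254%). Of 10 endothelial markers 1 was called higher, and of 7 adipocyte, 5 erythroid and 2 epidermal markers tested none was called. In bulk tendon RNA, fewer cells of a type and less RNA per cell cannot be told apart.

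Levels were first compared between the channel genes per length, as TPM, computed from the counts and the merged exon length of each gene. Kcnma1, the pore of the large-conductance calcium- and voltage-activated (BK) channel, was the highest of the 93 in each of the 10 libraries. It measured 45.8, 49.5 and 56.6 TPM in Mkx-CreER/flox, against 46.3, 56.5 and 62.0 TPM in Mkx-CreER/+ and 57.1, 71.0, 67.6 and 83.2 TPM in Mkx flox/+. Kcnk1, a weakly rectifying 2-pore-domain channel, came next by mean over the 10 libraries at 31.3 TPM, and its range in Mkx flox/+ alone was 18.3 to 48.0 TPM. Kcnj2, the inward rectifier that holds the resting potential of muscle fibres, followed at a mean of 16.3 TPM. The next 7 genes lay within a narrow band of means, from 13.5 TPM for Kcne4, a membrane-spanning subunit that inhibits Kcnq1 channels, to 11.5 TPM for Kcns3, an electrically silent subunit that modifies other voltage-gated pores. Between them stood the sodium-activated channel Kcnt2 (13.5 TPM), the 2-pore-domain channel Kcnk6 (13.3 TPM), the ATP-sensitive inward rectifier Kcnj11 (12.4 TPM), the fast delayed rectifier Kcnc1 (11.6 TPM) and the calcium-activated Kcnn4 of blood cells and fibroblasts (11.5 TPM). The libraries of these 7 overlapped from gene to gene, so their order is not resolved.

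**Figure D1:**
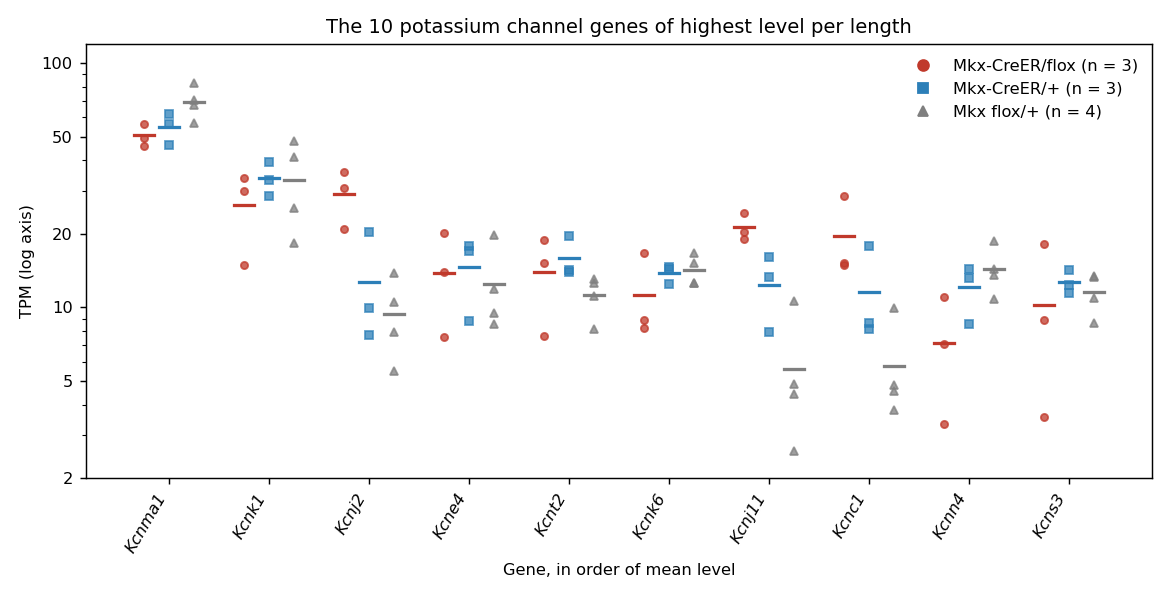
TPM (log axis) of the 10 potassium channel genes of highest mean level in each Mkx-CreER/flox (n = 3), Mkx-CreER/+ (n = 3) and Mkx flox/+ (n = 4) library, with bars at the means. Kcnma1 is above every other gene in each library, while Kcnj2, Kcnj11 and Kcnc1 have their means highest in Mkx-CreER/flox.

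Added over all members of a class, the inward rectifiers were the class whose summed level set Mkx-CreER/flox apart from the controls. They summed to 73.7, 79.6 and 67.9 TPM in Mkx-CreER/flox, against 27.0, 39.9 and 51.0 TPM in Mkx-CreER/+ and 17.5, 22.3, 25.6 and 34.1 TPM in Mkx flox/+. Every Mkx-CreER/flox library was above every control, and the controls overlapped one another. Voltage-gated genes summed to 94.2, 168 and 223 TPM in Mkx-CreER/flox, against 100, 112 and 125 TPM in Mkx-CreER/+ and 80.6 to 101 TPM in Mkx flox/+. Here Mkx-CreER/flox libraries 4 and 5 were above all controls and library 1 was within them. Calcium- or sodium-activated genes summed to 82.9 ± 15.9 TPM in Mkx-CreER/flox, 91.8 ± 14.5 TPM in Mkx-CreER/+ and 102 ± 8.61 TPM in Mkx flox/+ (SD, n = 3, 3 and 4). The 2-pore-domain sums (57.1 ± 21.8, 69.9 ± 9.0 and 67.1 ± 12.4 TPM) and the auxiliary sums (36.4 ± 11.6, 35.4 ± 8.99 and 30.6 ± 6.60 TPM), given for Mkx-CreER/flox, Mkx-CreER/+ and Mkx flox/+, overlapped between all 3 genotypes. These sums are descriptions with no test.

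**Figure D2:**
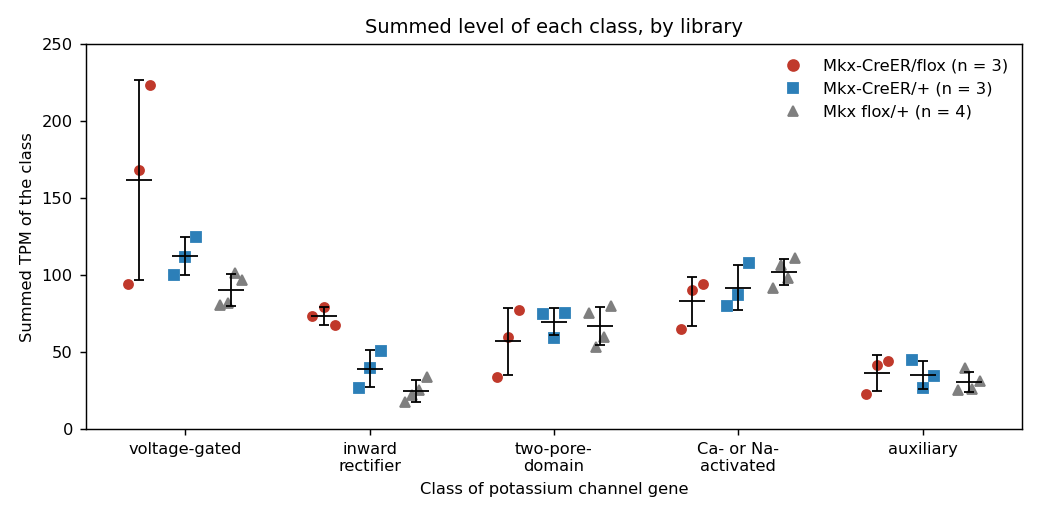
Summed TPM of all members of each class in every library, with mean and SD for Mkx-CreER/flox (n = 3), Mkx-CreER/+ (n = 3) and Mkx flox/+ (n = 4). The inward rectifiers are at 67.9 to 79.6 TPM in Mkx-CreER/flox and at or below 51.0 TPM in all 7 controls, and the other classes overlap between genotypes.

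Mkx-CreER/flox was then compared with both controls, weighted equally, gene by gene on TMM-scaled counts. Of the 93 genes, 50 had enough counts to be tested (22 voltage-gated, 6 inward rectifiers, 7 2-pore-domain, 7 calcium- or sodium-activated and 8 auxiliary) and 43 did not. Of the 50, 8 rose and 0 fell at an edgeR adjusted p under 0.05, while 4.65% of all 16017 genes tested were called, 3.03% higher and 1.62% lower. Those that rose were the inward rectifiers Kcnj2, Kcnj11 and Kcnj15, the voltage-gated Kcna2 and Kcnc1, the small-conductance calcium-activated Kcnn3, and the BK channel subunits Kcnmb1 and Lrrc55. The median log2 fold change of the 50 was 0.33, that of all genes tested was 0.02, and 36 of the 50 were above 0. By class, 3 of 6 inward rectifiers were called (median 1.10), 2 of 22 voltage-gated (0.52), 1 of 7 calcium- or sodium-activated (0.03), 2 of 8 auxiliary (0.24) and 0 of 7 2-pore-domain genes (-0.32). The count of 8 rests on all libraries together. There were 0 calls with Mkx-CreER/flox 4, Mkx-CreER/+ 1, Mkx-CreER/+ 2 or Mkx flox/+ 2 left out. There were 3 with Mkx-CreER/flox 1 left out, of which 1 (Kcna2) was among the 8, and 4 with Mkx-CreER/flox 5 left out, of which 3 were. Leaving out Mkx flox/+ 1 kept 1 of the 8, Mkx flox/+ 3 kept 4, Mkx-CreER/+ 4 kept 5 and Mkx flox/+ 4 kept 7, with no other call. A fit with the skeletal muscle marker score as covariate gave 0. At an unadjusted p under 0.05 there were 15 of 50, beside 20.7% of all genes.

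**Figure D3:**
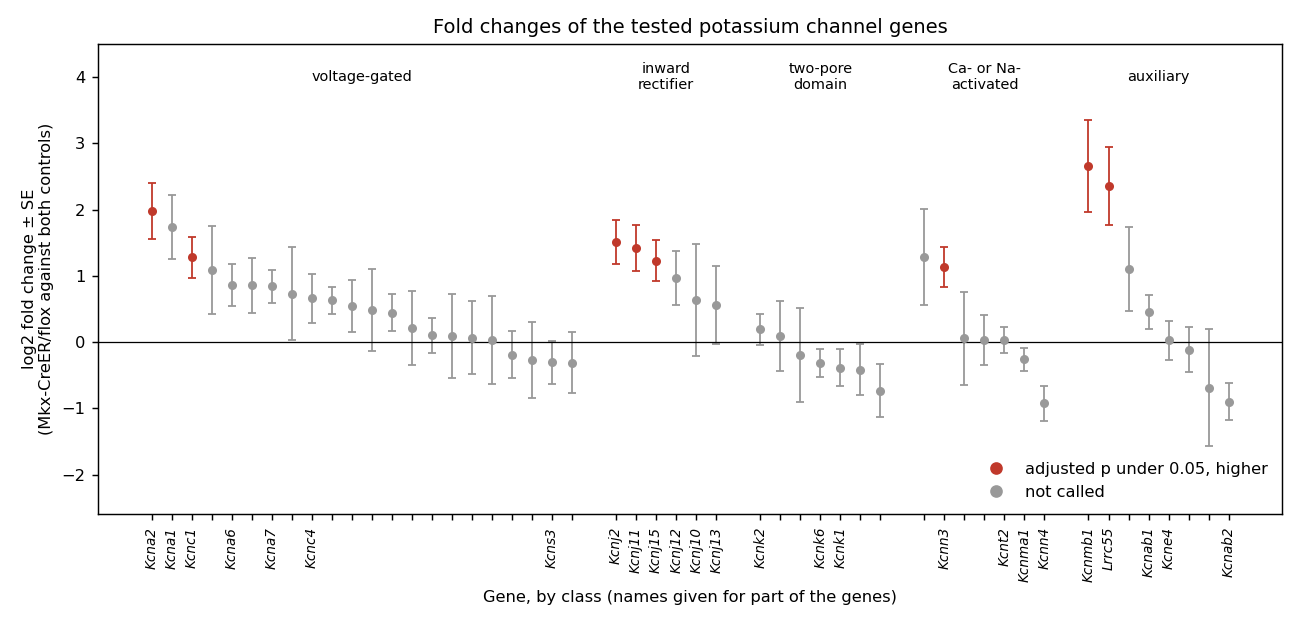
Log2 fold change with SE of the 50 tested potassium channel genes, Mkx-CreER/flox (n = 3) against both controls (n = 3 and 4), ordered within class and with names for part of the genes. The 8 genes at an edgeR adjusted p under 0.05 are all above 0, and 5 of the 7 2-pore-domain genes are below 0.

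To show the sequence in front of genes that rose, the 250 bases before the RefSeq start of 4 of them are given 5′ to 3′ (GRCm38.p6, plus strand). They are Kcnj2 (chr11:111065914-111066163), Kcnj15 (chr16:95257308-95257557), Kcnc1 (chr7:46396218-46396467) and Kcnmb1 (chr11:33962763-33963012). Capitals mark the E-box CANNTG, the core bound by basic helix-loop-helix factors such as the muscle regulators, and the core ACAANG of SOX factors, searched on both strands.
Kcnj2: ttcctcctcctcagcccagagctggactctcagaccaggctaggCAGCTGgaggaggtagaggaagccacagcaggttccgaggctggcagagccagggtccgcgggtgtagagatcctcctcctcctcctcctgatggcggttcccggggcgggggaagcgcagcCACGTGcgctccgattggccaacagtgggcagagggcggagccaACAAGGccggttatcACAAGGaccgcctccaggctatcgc
Kcnj15: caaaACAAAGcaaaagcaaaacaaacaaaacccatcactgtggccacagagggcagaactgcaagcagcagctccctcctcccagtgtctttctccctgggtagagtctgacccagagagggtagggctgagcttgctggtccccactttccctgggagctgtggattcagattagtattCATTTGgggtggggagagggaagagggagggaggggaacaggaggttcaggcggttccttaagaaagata
Kcnc1: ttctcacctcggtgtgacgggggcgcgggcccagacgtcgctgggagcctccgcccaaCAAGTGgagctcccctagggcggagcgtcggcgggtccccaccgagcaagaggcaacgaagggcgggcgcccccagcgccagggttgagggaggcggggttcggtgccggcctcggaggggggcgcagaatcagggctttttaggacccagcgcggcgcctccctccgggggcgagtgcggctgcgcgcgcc
Kcnmb1: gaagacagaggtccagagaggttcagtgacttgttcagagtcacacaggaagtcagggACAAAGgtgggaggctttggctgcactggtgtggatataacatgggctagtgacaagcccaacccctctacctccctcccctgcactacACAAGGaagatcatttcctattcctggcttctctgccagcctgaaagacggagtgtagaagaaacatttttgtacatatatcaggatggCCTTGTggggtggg
The Kcnj2 window held 2 E-boxes and 2 SOX cores, that of Kcnj15 held 1 and 1, that of Kcnc1 held 1 E-box and that of Kcnmb1 held 3 SOX cores. None held a CArG box or a MEF2 site, the motifs bound by serum response factor and the myocyte enhancer factors. An E-box was in 66.2% and a SOX core in 36.3% of the 32851 promoter windows of the table, a CArG box in 1.47% and a MEF2 site in 2.92%. Among the 93 windows of the 68 potassium channel genes that had any, the shares were 66.7%, 28%, 0% and 2.15%. A match says only that these letters stand in the window.

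The inward rectifiers were the class with most calls. Kcnj2 (ENSMUSG00000041695, chr11:111066164-111076821, plus strand), whose loss in humans causes Andersen-Tawil periodic paralysis, measured 67.8, 40.7 and 27.5 CPM in Mkx-CreER/flox, against 11.3, 15.2 and 27.7 CPM in Mkx-CreER/+ and 7.98, 10.9, 15.8 and 21.0 CPM in Mkx flox/+. Mkx-CreER/flox 1 and 4 were above all controls, and library 5 lay just below the highest Mkx-CreER/+ library. Its log2 fold change was 1.51 (SE 0.330, edgeR adjusted p = 0.0282). Kcnj11 (ENSMUSG00000096146, chr7:46093953-46100764, minus strand) forms the pore of the ATP-sensitive channel together with a sulfonylurea receptor. It measured 31.2, 17.0 and 18.04 CPM in Mkx-CreER/flox, against 7.84, 13.7 and 14.8 CPM in Mkx-CreER/+ and 2.53, 4.09, 4.94 and 10.9 CPM in Mkx flox/+. No Mkx-CreER/flox library overlapped a control, and the log2 fold change was 1.42 (SE 0.346, edgeR adjusted p = 0.0352).

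Kcnj15 (ENSMUSG00000062609, chr16:95257558-95300260, plus strand), an inward rectifier best known from kidney epithelium, measured 12.0, 16.6 and 11.8 CPM in Mkx-CreER/flox. It measured 9.69, 5.31 and 8.03 CPM in Mkx-CreER/+ and 2.53, 3.52, 7.73 and 3.12 CPM in Mkx flox/+. Here too the groups were apart, with a log2 fold change of 1.23 (SE 0.311, edgeR adjusted p = 0.0380), and 5.28% of its exon length overlaps a gene on the other strand. Kcnj12, a close relative of Kcnj2 named here after its values were seen, measured 4.98, 5.50 and 7.32 CPM in Mkx-CreER/flox, against 1.33, 6.15 and 3.83 CPM in Mkx-CreER/+ and 1.27, 1.59, 3.24 and 3.48 CPM in Mkx flox/+. Mkx-CreER/+ library 2 was within the Mkx-CreER/flox range, and the log2 fold change of 0.97 did not pass (SE 0.412, edgeR adjusted p = 0.198). The remaining tested rectifiers, Kcnj10 and Kcnj13, were at or below 2.06 CPM in every library. With these counts the log2 fold changes of Kcnj2, Kcnj11 and Kcnj15 were above 0 in every alternative run. The call was less stable, and of 24 alternatives Kcnj2 lost it in 8, Kcnj11 in 12 and Kcnj15 in 15. With each of the 10 libraries left out in turn, they lost it in 5, 7 and 8 fits, in that order.

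**Figure D4:**
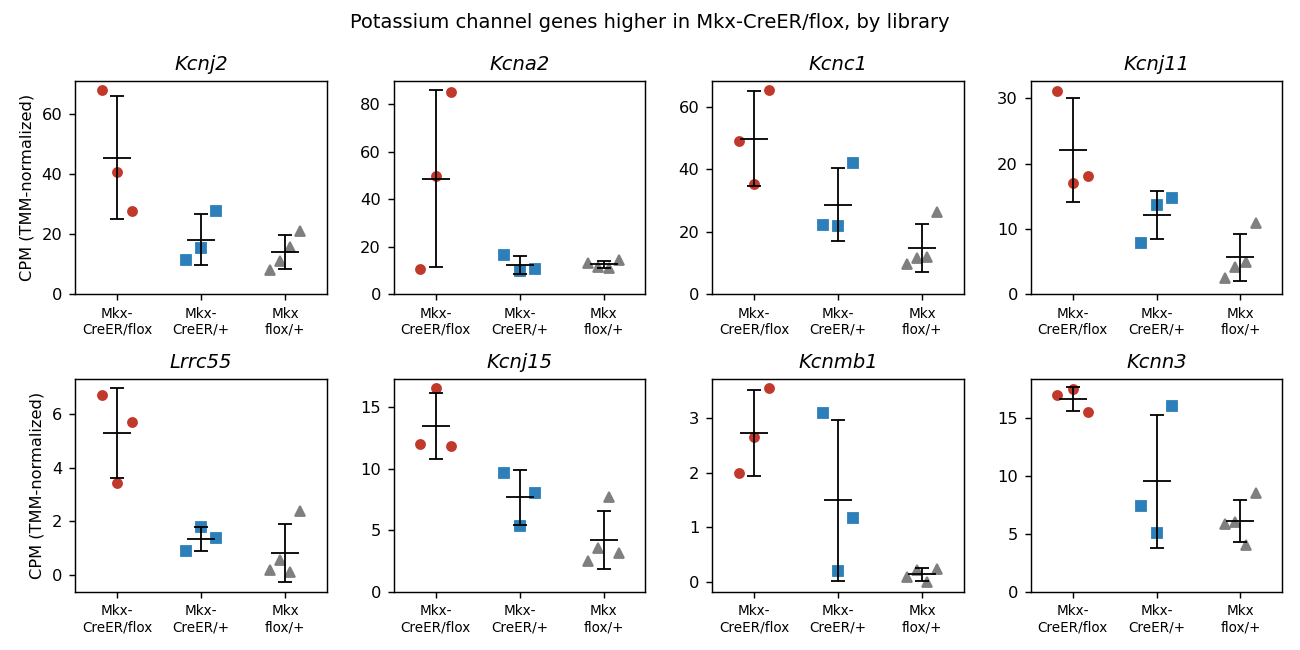
CPM by library, with mean and SD, of the 8 potassium channel genes that rose in Mkx-CreER/flox (n = 3) against Mkx-CreER/+ (n = 3) and Mkx flox/+ (n = 4). Kcnj11, Lrrc55 and Kcnj15 show no overlap with any control, Kcna2 is high in 2 of 3 Mkx-CreER/flox libraries, and Kcnmb1 is near 0 in all Mkx flox/+ libraries.

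Across the 50 tested genes, 4 had all Mkx-CreER/flox libraries above all 7 controls, beside 3.81% of all genes tested, and 1 had all below, beside 3.12%. Kcnj11, Kcnj15 and Lrrc55 were among those above, and Kcnab2 was below. For these genes the two-sided exact permutation test on log2 CPM gave p = 0.025 (Kcnj11), p = 0.0167 (Kcnj15) and p = 0.0083 (Lrrc55 and Kcnab2), the last being the smallest that 3 libraries against 7 allow. These genes were picked for standing apart in the same values, so a small p was fixed by the choice and adds no support. Of the genes that rose, Kcnj2, Kcna2, Kcnc1, Kcnmb1 and Kcnn3 overlapped a control.

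The voltage-gated genes held 2 patterns over libraries. Kcna2 (ENSMUSG00000040724, chr3:107101146-107115005, plus strand), a Shaker-type subunit that lines the juxtaparanodes of myelinated axons, measured 10.8, 49.7 and 85.4 CPM in Mkx-CreER/flox libraries 1, 4 and 5. It measured 16.4, 9.83 and 10.5 CPM in Mkx-CreER/+ and 13.2, 11.2, 11.1 and 14.4 CPM in Mkx flox/+. Libraries 4 and 5 were thus far above the controls and library 1 was among the lowest, for a log2 fold change of 1.98 (SE 0.419, edgeR adjusted p = 0.0289). Without library 1 it was 2.43 (edgeR adjusted p = 0.000139) and without library 5 it was 1.29 (edgeR adjusted p = 0.0697).

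Its partner at the juxtaparanode, Kcna1, followed the same libraries at 4.89, 19.8 and 34.7 CPM in Mkx-CreER/flox, against 11.3, 2.996 and 5.38 CPM in Mkx-CreER/+ and 4.04 to 7.67 CPM in Mkx flox/+. Its log2 fold change of 1.74 did not pass (SE 0.486, edgeR adjusted p = 0.0632), and without Mkx-CreER/flox 1 it was 2.18 (edgeR adjusted p = 0.0197). Kcna6, a further Shaker-type subunit named after its values were seen, measured 5.97, 13.99 and 20.5 CPM in Mkx-CreER/flox, against 7.40, 5.15 and 9.80 CPM in Mkx-CreER/+ and 5.99 to 10.5 CPM in Mkx flox/+. Its log2 fold change was 0.86 (SE 0.323, edgeR adjusted p = 0.145), 39.6% of its exon length overlaps a gene on the other strand, and without Mkx-CreER/flox 1 it was 1.19 (edgeR adjusted p = 0.0477). With each of the 10 libraries left out in turn, the log2 fold change of Kcna1 ran from 1.05 to 2.18 (edgeR adjusted p 0.0197 to 0.229). That of Kcna6 ran from 0.42 to 1.19 (edgeR adjusted p 0.0477 to 0.501). Kcna2, Kcna1 and Kcna6 were all lowest of the genotype in library 1 and highest in library 5.

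The Schwann cell markers ran through the libraries in that order too. They took 0.0466, 0.163 and 0.269% of counts in Mkx-CreER/flox 1, 4 and 5, against 0.118, 0.0586 and 0.0542% in Mkx-CreER/+ and 0.0736, 0.0532, 0.0619 and 0.0849% in Mkx flox/+. Mkx-CreER/flox 1 held the lowest share of the 10 libraries, and Mkx-CreER/+ 1, the control with the highest share, was also the control with most Kcna1 and Kcna2. Kcna6 did not share this, with 7.40 CPM in Mkx-CreER/+ 1 and its highest control value, 10.5 CPM, in Mkx flox/+ 1. The order over Mkx-CreER/flox 1, 4 and 5 was not particular to the Schwann cell markers. Mural and smooth muscle (0.156, 0.231 and 0.254%), endothelial (0.0508, 0.0767 and 0.0839%) and macrophage markers (0.0607, 0.0854 and 0.0870%) had it as well. Mkx-CreER/+ 1 was also the control with the highest mural (0.139%) and endothelial (0.0657%) shares. With the Schwann cell score as a covariate the log2 fold changes were 0.69 for Kcna2 (edgeR adjusted p = 0.0750), 0.45 for Kcna1 (edgeR adjusted p = 0.293) and 0.26 for Kcna6 (edgeR adjusted p = 0.688). With the mural and smooth muscle score as covariate Kcna2 was at 0.27 (edgeR adjusted p = 0.659) and Kcna1 at -0.08 (edgeR adjusted p = 0.908). The parts of nerve and of these other cell types in these results were not tested beyond these fits.

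Kcnc1 and Kcna7 were spread differently. Kcnc1 (ENSMUSG00000058975, chr7:46396497-46438704, plus strand), a Shaw-type channel that repolarises fast-firing cells, measured 48.9, 35.1 and 65.3 CPM in Mkx-CreER/flox, against 22.0, 21.7 and 42.0 CPM in Mkx-CreER/+ and 9.54, 11.5, 11.9 and 26.3 CPM in Mkx flox/+. All 3 Mkx-CreER/flox libraries were above 6 of the 7 controls, Mkx-CreER/+ 4 lay among them, and the log2 fold change was 1.28 (SE 0.305, edgeR adjusted p = 0.0340). Kcna7, a Shaker-type channel of skeletal and heart muscle, measured 10.04, 9.23 and 8.50 CPM in Mkx-CreER/flox, against 5.55, 8.72 and 7.57 CPM in Mkx-CreER/+ and 2.34, 3.41, 4.603 and 4.20 CPM in Mkx flox/+. It overlapped Mkx-CreER/+ by 1 library and stood apart from Mkx flox/+, and its log2 fold change of 0.84 against both controls did not pass (SE 0.255, edgeR adjusted p = 0.0722).

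Kcnc4, a Shaw-type channel of skeletal muscle named after its values were seen, measured 13.5, 9.03 and 19.6 CPM in Mkx-CreER/flox, 5.10, 16.1 and 11.2 CPM in Mkx-CreER/+ and 3.50 to 10.2 CPM in Mkx flox/+ (log2 fold change 0.66, SE 0.371, edgeR adjusted p = 0.338). The silent subunit Kcns3 measured 3.89, 13.99 and 6.80 CPM in Mkx-CreER/flox, a range that enclosed all 7 controls (7.30 to 12.1 CPM).

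Skeletal muscle markers took 11.8, 8.48 and 7.63% of counts in Mkx-CreER/flox 1, 4 and 5, against 3.18, 8.31 and 6.32% in Mkx-CreER/+ and 1.67, 1.95, 5.05 and 5.24% in Mkx flox/+. Kcnj2 and Kcna7 had the same order as these markers over the Mkx-CreER/flox libraries, and Kcnj2, Kcnj11 and Kcnc1 had it over the Mkx flox/+ libraries. Over the Mkx-CreER/+ libraries Kcna7 had it, while Kcnj2, Kcnj11 and Kcnc1 were highest in library 4 and the markers in library 2. The order depends on the measure, since the muscle score was 10.7, 9.59 and 10.1 in Mkx-CreER/flox 1, 4 and 5. On that score Kcnj11 had the order of the markers over these libraries, and Kcnj2 and Kcna7 did not. In a fit with the muscle score as covariate the log2 fold changes were 1.17 for Kcnj2 (edgeR adjusted p = 0.110), 0.94 for Kcnj11 (edgeR adjusted p = 0.141), 1.05 for Kcnc1 (edgeR adjusted p = 0.136) and 0.61 for Kcna7 (edgeR adjusted p = 0.254). Kcnj15 had 1.2 (edgeR adjusted p = 0.116) and Kcna2 2.14 (edgeR adjusted p = 0.0600), so that no channel gene was called. With Schwann cell and muscle scores together, an alternative chosen after the data were seen, Kcnj2 was at 1.51 (edgeR adjusted p = 0.0307).

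**Figure D5:**
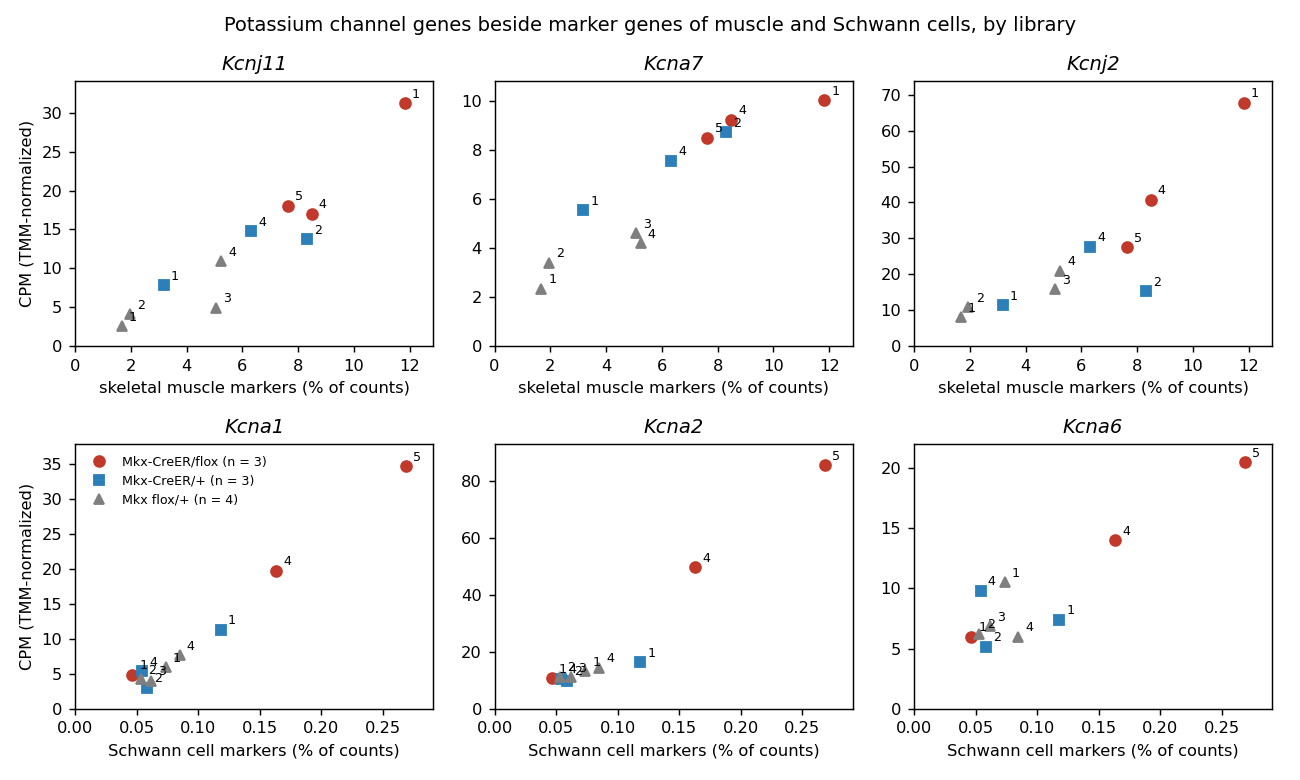
CPM of 3 channel genes against the share of counts from skeletal muscle markers (top) and of 3 Shaker-type genes against the share from Schwann cell markers (bottom), each point being a numbered library of Mkx-CreER/flox, Mkx-CreER/+ or Mkx flox/+. Mkx-CreER/flox 1 has the highest muscle share (11.8%) and the lowest Schwann cell share (0.0466%), and Kcna1, Kcna2 and Kcna6 are highest in Mkx-CreER/flox 5, which has the highest Schwann cell share (0.269%).

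Among the calcium-activated channels, the BK pore Kcnma1 measured 269, 204 and 232 CPM in Mkx-CreER/flox, 212, 270 and 263 CPM in Mkx-CreER/+ and 258, 305, 317 and 395 CPM in Mkx flox/+. The genotypes overlapped, and its log2 fold change of -0.26 did not pass (SE 0.174, edgeR adjusted p = 0.438). The accessory BK subunits called against both controls were Lrrc55 and Kcnmb1. Lrrc55 was made a member with earlier results known, while its relatives Lrrc38 and Lrrc52, given with the channel partners, were tested and not called. Lrrc55 (ENSMUSG00000075224, chr2:85162334-85197197, minus strand), a leucine-rich-repeat gamma subunit of BK, had 74, 70 and 77 counts in Mkx-CreER/flox, against 12, 34 and 33 counts in Mkx-CreER/+ and 2, 5, 2 and 20 counts in Mkx flox/+. In CPM these are 6.69, 3.44 and 5.69 in Mkx-CreER/flox, against 0.888, 1.79 and 1.39 in Mkx-CreER/+ and 0.195, 0.57, 0.114 and 2.40 in Mkx flox/+. No library of Mkx-CreER/flox overlapped a control, the log2 fold change was 2.36 (SE 0.589, edgeR adjusted p = 0.0367), and 7.35% of its exon length overlaps genes on the other strand.

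Kcnmb1 (ENSMUSG00000020155, chr11:33963013-33973641, plus strand), the BK beta subunit known from smooth muscle, had 22, 54 and 48 counts in Mkx-CreER/flox, against 42, 4 and 28 counts in Mkx-CreER/+ and 1, 2, 0 and 2 counts in Mkx flox/+. In CPM it was at 1.99, 2.65 and 3.55 in Mkx-CreER/flox, and 2 of these libraries lay within the range of Mkx-CreER/+ (3.11, 0.210 and 1.18 CPM). All 3 were above Mkx flox/+, where no library passed 3 counts. The fitted log2 fold change against both controls was 2.65 (SE 0.694, edgeR adjusted p = 0.0431), and against Mkx flox/+ it rests on these few counts and on the prior count of the fit. Mural and smooth muscle markers took 0.156, 0.231 and 0.254% of counts in Mkx-CreER/flox, 0.139, 0.120 and 0.129% in Mkx-CreER/+ and 0.0970 to 0.124% in Mkx flox/+. Kcnmb1 followed the order of these shares within both genotypes that carry CreER. The order depends on the measure here too. On the mural score Kcnmb1 followed it in Mkx-CreER/flox, but in Mkx-CreER/+ the score was lowest in library 4 and Kcnmb1 in library 2. Mkx-CreER/flox 1 had a mural score of 5.001, below Mkx-CreER/+ 1 (5.667) and Mkx flox/+ 4 (5.175). With the mural score as a covariate the log2 fold change of Kcnmb1 was 1.75 (edgeR adjusted p = 0.177).

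Kcnn3 (ENSMUSG00000000794, chr3:89520164-89675132, plus strand), a small-conductance channel gated by calcium through calmodulin, measured 16.9, 17.5 and 15.5 CPM in Mkx-CreER/flox. It measured 7.40, 5.10 and 16.02 CPM in Mkx-CreER/+ and 5.84, 6.02, 4.04 and 8.51 CPM in Mkx flox/+. Mkx-CreER/flox was narrow, and Mkx-CreER/+ 4 alone among the controls reached it (log2 fold change 1.13, SE 0.304, edgeR adjusted p = 0.0480). Kcnn4, the intermediate-conductance channel, measured 5.88, 8.79 and 13.6 CPM in Mkx-CreER/flox, against 18.3, 12.3 and 18.5 CPM in Mkx-CreER/+ and 25.5, 18.5, 19.2 and 15.5 CPM in Mkx flox/+. Mkx-CreER/flox 5 was above 1 control, and the log2 fold change of -0.92 did not pass against both controls (SE 0.268, edgeR adjusted p = 0.0618). Kcnt2 had a log2 fold change of 0.03 against both controls, which turned to -0.0096 with upper-quartile scaling, and neither value passed the test.

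Of the auxiliary subunits of other pores, Kcnab2, the Shaker beta subunit with an oxidoreductase fold, measured 2.35, 5.25 and 4.66 CPM in Mkx-CreER/flox, against 8.14, 6.67 and 5.76 CPM in Mkx-CreER/+ and 7.20, 8.63, 9.72 and 9.11 CPM in Mkx flox/+. All Mkx-CreER/flox libraries were below all controls, but the log2 fold change of -0.90 did not pass (SE 0.284, edgeR adjusted p = 0.0829). Its relative Kcnab1 had a log2 fold change of 0.45 (SE 0.254, edgeR adjusted p = 0.339), and Kcne4 one of 0.03, which turned to -0.014 with upper-quartile scaling. Macrophage markers, all 10 of which fell and none of which was at 0 in any library, took 0.0777 ± 0.0147% of counts in Mkx-CreER/flox, 0.194 ± 0.0766% in Mkx-CreER/+ and 0.190 ± 0.0437% in Mkx flox/+ (SD, n = 3, 3 and 4). They stand beside the lower values of Kcnn4 and Kcnab2. In Mkx-CreER/flox 1, 4 and 5 the shares were 0.0607, 0.0854 and 0.0870%. Kcnn4 had the same order, while Kcnab2 was highest in library 4. In Mkx-CreER/+ 1, 2 and 4 the shares were 0.211, 0.261 and 0.110%. There Kcnn4 was lowest in library 2 and Kcnab2 in library 4. In Mkx flox/+ 1 to 4 the shares were 0.170, 0.158, 0.254 and 0.177%. Of these libraries, Kcnn4 was highest in library 1 and lowest in library 4, and Kcnab2 was highest in library 3 and lowest in library 1. The part of the macrophage markers in these values was not tested.

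None of the 7 tested 2-pore-domain genes, which carry the leak conductance, was called. Kcnk1 measured 11.6, 16.2 and 18.3 CPM in Mkx-CreER/flox, 23.8, 17.97 and 18.6 CPM in Mkx-CreER/+ and 24.6, 10.3, 15.9 and 30.0 CPM in Mkx flox/+. These overlapped (log2 fold change -0.39, SE 0.282, edgeR adjusted p = 0.479), and 8.01% of its exon length overlaps a gene on the other strand. Kcnk6 measured 11.9, 8.98 and 16.8 CPM in Mkx-CreER/flox, 14.6 to 16.1 CPM in Mkx-CreER/+ and 14.4 to 17.6 CPM in Mkx flox/+ (log2 fold change -0.32, SE 0.211, edgeR adjusted p = 0.433). Kcnk2, a stretch- and heat-gated channel, measured 14.1 ± 2.78 CPM in Mkx-CreER/flox, 13.5 ± 4.61 CPM in Mkx-CreER/+ and 11.3 ± 2.04 CPM in Mkx flox/+ (SD, n = 3, 3 and 4). A p that misses the threshold does not show that these levels are equal.

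The 2 controls were then taken in turn, both comparisons sharing the Mkx-CreER/flox libraries. Against Mkx-CreER/+ alone 0 of the 50 channel genes were called by edgeR, where 0.00624% of all genes were (1 gene, Mkx). At an unadjusted p under 0.05 there were 9 of 50, beside 10.7% of all genes, DESeq2 called 1 (Kcna2) and limma voom 5 (Kcna2, Kcna6, Kcnj15, Kcnj2 and Kcnn3). The log2 fold changes there were 1.996 for Kcna2 (SE 0.538), 1.94 for Lrrc55 (SE 0.733), 1.32 for Kcnj2 (SE 0.411), 0.86 for Kcnj11 (SE 0.424), 0.82 for Kcnj15 (SE 0.381), 0.80 for Kcnn3 (SE 0.370) and 0.89 for Kcnmb1 (SE 0.778). Of the 50, 4 had all Mkx-CreER/flox libraries above Mkx-CreER/+ (6.65% of all genes) and 2 all below (6.14%).

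Against Mkx flox/+ alone 11 of 50 were called, 9 higher and 2 lower, where 7.27% of all genes were called, 4.37% higher and 2.9% lower. The 9 were the 8 named above and Kcna7, which had a log2 fold change of 1.34 (SE 0.293, edgeR adjusted p = 0.0165). Kcnn4 and Kcnab2 fell, with log2 fold changes of -1.06 (SE 0.290, edgeR adjusted p = 0.0399) and -1.07 (SE 0.308, edgeR adjusted p = 0.0489). Kcnab2 lost this call in 10 of the 10 fits with a library left out (edgeR adjusted p 0.0515 to 0.124), and Kcnn4 in 6. Of 24 alternatives, Kcnab2 lost it in 15 and Kcnn4 in 11. At an unadjusted p under 0.05 there were 19 of 50, beside 23% of all genes. In this comparison 10 of 50 had all Mkx-CreER/flox libraries above, beside 10% of all genes, and 2 all below, beside 9.5%. Leaving out Mkx flox/+ 1 kept 3 of the 11 calls, Mkx-CreER/flox 4 kept 4, and a fit with the muscle score as covariate kept 1 (Kcnmb1). Leaving out Mkx-CreER/flox 1, Mkx flox/+ 2 or Mkx flox/+ 3 gave 6 calls each, of which 4, 5 and 6 were among the 11, in that order.

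Between the controls, Mkx-CreER/+ against Mkx flox/+, 0 of 50 channel genes were called, as 0% of all genes were by edgeR. At an unadjusted p under 0.05 there were 6 of 50, beside 4.98% of all genes, and DESeq2 and limma voom called 0 channel genes. The log2 fold changes were 3.52 for Kcnmb1 (SE 0.947), 1.13 for Kcnj11 (SE 0.407), 0.996 for Kcna7 (SE 0.293), 0.96 for Kcnc1 (SE 0.354), 0.82 for Kcnj15 (SE 0.364) and -0.03 for Kcna2 (SE 0.50). The genes that rose against both controls, Kcna2 aside, had their mean level in the order Mkx-CreER/flox, Mkx-CreER/+, Mkx flox/+. The first place of Mkx-CreER/flox was fixed by the choice of these genes. Of the 50 tested, 34 had a log2 fold change above 0 between the controls (median 0.23, beside 0.0016 for all genes). Genes not called against both controls had the order too, among them Kcna7, Kcnj12, Kcnc4, Kcna1, Kcna6, Kcnab1 and Kcnk2. Mean skeletal muscle marker shares also had it (9.31, 5.93 and 3.48%). Kcna2 averaged 12.3 CPM in Mkx-CreER/+ and 12.5 CPM in Mkx flox/+.

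Other genes of ion transport were counted from lists of channel partners, potassium pumps and cotransporters, and further cation channels. Of 11 tested partners, 2 rose and 0 fell against both controls, beside the 3.03% of all genes called higher and 1.62% called lower. They were Ank3, which encodes ankyrin-G and clusters channels at axon initial segments and nodes, and Abcc9, the sulfonylurea receptor that joins inward rectifier pores in muscle and vessels. Ank3 measured 114, 119 and 143 CPM in Mkx-CreER/flox, against 54.7, 74.5 and 69.5 CPM in Mkx-CreER/+ and 59.1 to 69.4 CPM in Mkx flox/+. Its groups were apart (log2 fold change 0.95, SE 0.143). Abcc9 measured 229, 133 and 116 CPM in Mkx-CreER/flox, against 62.4, 99.9 and 79.4 CPM in Mkx-CreER/+ and 43.6 to 88.9 CPM in Mkx flox/+, the libraries of Mkx-CreER/flox again standing above (log2 fold change 1.19, SE 0.240). Abcc8, the receptor that serves pancreatic beta cells and neurons, had a log2 fold change of -0.04 (SE 0.722), and the BK gamma subunits Lrrc38 and Lrrc52 had -0.07 (SE 0.911) and 0.80 (SE 0.472), none of which passed.

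Of 15 tested pump and cotransporter genes, 3 rose and 1 fell. Atp1b1, the most widespread beta chain of the sodium pump, measured 191, 115 and 63.1 CPM in Mkx-CreER/flox, against 28.0, 18.2 and 64.8 CPM in Mkx-CreER/+ and 6.99 to 35.7 CPM in Mkx flox/+, so that Mkx-CreER/+ 4 reached the lowest Mkx-CreER/flox library (log2 fold change 2.24, SE 0.514). The sodium-potassium-chloride cotransporter Slc12a2 rose as well (log2 fold change 0.59, SE 0.157), and the pump regulator Fxyd5 fell (log2 fold change -0.74, SE 0.192). Of 10 sodium channel genes the beta subunit Scn4b rose (log2 fold change 1.55, SE 0.280). Of 18 calcium channel genes the T-type pore Cacna1h (2.44, SE 0.613) and the alpha-2-delta subunit Cacna2d1 (0.99, SE 0.266) rose. Cacna2d1 measured 566, 236 and 250 CPM in Mkx-CreER/flox 1, 4 and 5. Its controls were at 148, 177 and 251 CPM in Mkx-CreER/+ and 119 to 198 CPM in Mkx flox/+. Mkx-CreER/flox 4 and 5 were thus below the highest Mkx-CreER/+ library. With each of the 10 libraries left out in turn, Slc12a2 and Cacna2d1 lost their call in 8 fits, Fxyd5 and Cacna1h in 7, Atp1b1 in 6, Abcc9 and Scn4b in 3 and Ank3 in 0. Against Mkx-CreER/+ alone no gene of these lists was called by edgeR.

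Of the 43 channel genes that were not tested, 3 had no count and the others had up to 80 counts over all 10 libraries, which was also the lowest total of a tested gene. They include 18 of 40 voltage-gated, 8 of 14 inward rectifier, 7 of 14 2-pore-domain, 1 of 8 calcium- or sodium-activated and 9 of 17 auxiliary genes. The BK subunits Kcnmb2, Kcnmb3 and Kcnmb4 were among them, with totals of 25, 31 and 56 counts, as was the cardiac subunit Kcne1 with 2 counts. No test was made of these genes.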

How the data were processed

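The authors deposited raw read counts per Ensembl gene for 10 Achilles tendon libraries. Reads were trimmed with fastp and aligned with STAR to mm10, per the submitters' processing notes. The sources used here name no counting tool, annotation or strand setting and do not say how multi-mapped reads were counted, so reads of a gene and its antisense partner cannot be told apart. Symbols and coordinates came from GENCODE vM21 (GRCm38), and promoter sequences from RefSeq (GRCm38.p6). Table columns were tied to samples by name for Mkx flox/+ and to the genotype alone for the others. The members and lists were chosen with earlier results of these data known.

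The tools were edgeR 4.0.16 and limma 3.58.1 in R 4.3.3. After filterByExpr and TMM scaling, 1 robust quasi-likelihood model with a term per genotype was fitted to all 10 libraries; it was first tested on simulated data. Benjamini-Hochberg adjustment covered all 16017 genes tested, with calls at adjusted p under 0.05. TPM values used merged exon lengths, and permutation tests used log2(CPM + 0.5). A marker score averages log2 CPM over a list (prior count 2). Named genes were those called in any comparison, Lrrc55, the 10 of highest mean TPM, the 5 of smallest unadjusted p among those not called against both controls, and called genes of the other lists; some of these are not reported here. No pair of libraries of the same genotype agreed within sampling noise (chi-square per degree of freedom 21.7 to 108). Alternatives were other scalings and filters, DESeq2 1.42.0, limma voom, marker scores as covariates, control coding and libraries left out.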

Additional observations from a re-analysis of the deposited data

Results flagged for a closer look

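Among 21 potassium channel genes checked in the 4 Mkx flox/+ libraries for a library far from the others, Kcnc1 met the criterion. It measured 26.25 CPM in Mkx flox/+ library 4, with the nearest of the other 3 libraries at 11.88 CPM, a gap of 0.86 of the whole range. Chance alone flags about 1 in 20 groups, so 1 of 21 is near that share. Without this library the log2 fold change of Kcnc1 against both controls was 1.47 (edgeR adjusted p = 0.00860), and with it 1.28 (edgeR adjusted p = 0.0340). Library 4 also had the highest share of skeletal muscle markers in Mkx flox/+, at 5.24% of counts, but library 3 had 5.05% and 11.9 CPM of Kcnc1. The part of muscle content in the value was not tested.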

How the results depend on the processing

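No paired analysis was possible because the Mkx-CreER/flox and Mkx-CreER/+ columns do not carry the replicate numbers of the labels. The count of 8 potassium channel genes called against both controls was 19 with limma voom, 0 with the skeletal muscle score, 5 with the mural score, 3 with the 7 controls as 1 group, 3 with Mkx-CreER/flox 1 left out and the muscle score, and 0 to 7 with each library left out. DESeq2 called 12. Against Mkx-CreER/+ the 0 became 1 with DESeq2, 5 with voom, 1 with Mkx-CreER/flox 1 left out and the muscle score, and 0 to 1 with each library left out. Against Mkx flox/+ the 11 became 18 with voom, 1 with the muscle score, 7 with the mural score, 4 with Mkx-CreER/flox 1 left out and the muscle score, and 3 to 10 with each library left out. Of alternatives chosen after the data were seen, muscle and Schwann cell scores together gave 2, and 4 against Mkx flox/+, and leaving out Mkx-CreER/flox 1 and Mkx-CreER/+ 1 gave 2, 2 against Mkx-CreER/+ and 6 against Mkx flox/+. In these, other scalings and other filters, the 8 genes kept a positive log2 fold change, which for Kcna2 was down to 0.27 with the mural score (adjusted p = 0.659). Of 24 alternatives, Kcnn3 was not called in 17, Kcnmb1 and Kcnc1 in 16 each and Kcnj15 in 15. Lrrc55 was not called in 13, Kcnj11 in 12, Kcna2 in 11 and Kcnj2 in 8. Among the named genes, signs turned only for values that had not passed. Kcne4 had -0.014 with upper-quartile scaling, -0.26 with the Schwann cell score, -0.45 with the mural score and -0.25 to 0.19 with each library left out. Kcnt2 had -0.0096, -0.062, -0.046 and -0.17 to 0.19 in the same order. Kcns3 had 0.18 with voom, 0.050 without both libraries and -0.94 to 0.0023 with each left out. Kcna1 had -0.081 with the mural score. The causes were not tested. Genes of few counts, such as Kcnmb1 and Lrrc55, are limited by depth.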
